A study of Homo sapiens with 14 samples.

Results

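Genes that encode the nucleolar machinery of ribosome synthesis were followed on expression arrays of Hep3BTAp73β cells with and without TAp73β induction. Their members were taken from a textbook list of 59 genes, chosen with earlier results of these data known. Of the 59, 52 had a probe set that named that gene alone, among 19775 genes measured in the whole series. The 7 listed genes without one were NOP56, DKC1, BOP1, GNL3, PPAN, DDX18 and EBNA1BP2. By role, the measured members were 8 of 8 genes of RNA polymerase I (Pol I) transcription, 6 of 8 of the small nucleolar ribonucleoproteins (snoRNPs), 17 of 17 of small subunit assembly and 13 of 18 of large subunit assembly. The other members were 2 of 2 genes of the RNA exosome and 6 of 6 nucleolar proteins that act at several steps. All 52 were expressed above the median gene of the arrays. Hep3B is a hepatocellular carcinoma line, and in Hep3BTAp73β, grown from drug-resistant colonies, a tetracycline-regulated construct of TAp73β, the beta isoform of the transcription factor p73, is switched on by doxycycline. The Dox+ cells were kept in doxycycline (1 μg/mL) and sampled after 12 h, 24 h or 48 h, and the Dox− cells of the same line, which carry the same construct, received none, in medium that the labels give as DMEM and the methods as RPMI. At 48 h there were 3 Dox+ and 3 Dox− arrays, and at each of the earlier times 2 of either kind, all hybridised with separate RNAs to the Affymetrix U133 Plus 2.0 design, and the labels call the replicates biological. No doxycycline-treated line without the construct was analysed here, so doxycycline and TAp73β cannot be told apart. In extracts of whole cultures, fewer cells of a type and less RNA per cell cannot be told apart either.

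Ribosomes are built in the nucleolus, where Pol I transcribes the ribosomal DNA into a long precursor RNA. Box C/D snoRNPs guide 2′-O-methylation and H/ACA snoRNPs guide pseudouridylation of that precursor, while the small subunit processome, helicases, nucleases and the exosome cut and fold it into the RNAs of the small and the large subunit. Many of these genes are known targets of the transcription factor MYC, and their output is known to follow the growth rate of a cell.

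The introduced gene was checked first. TP73 lay between 7.89 and 8.30 (log2) on the 7 Dox+ arrays and between 5.82 and 6.08 on the 7 Dox− arrays. As a check on the label, the 6 hepatocyte markers averaged 11.4 to 11.7 on the Dox+ arrays and 11.6 to 11.8 on the Dox− arrays. Markers of leukocytes (2 measured, CD68 not among them), endothelium (3) and fibroblasts (4) averaged no more than 6.19 on any Dox+ array and no more than 6.38 on any Dox− array. RNA quality differed between the time points. The 5′ minus 3′ difference of the GAPDH control probe sets was −1.77 and −0.96 on the Dox+ arrays of 12 h and −1.12 and −0.89 on the Dox− arrays of 12 h. At 24 h it was −1.003 and −0.91 on the Dox+ arrays and −0.49 and −0.43 on the Dox− arrays, so that at this time the groups did not overlap. At 48 h it lay between −0.52 and −0.37 on the Dox+ arrays and between −0.49 and −0.41 on the Dox− arrays. For actin it was −2.26 and −1.85 on the Dox+ arrays of 12 h and −1.60 and −1.50 on the Dox− arrays. The groups thus did not overlap for actin at 12 h, nor did they at 24 h, but they did at 48 h.

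Because many of the genes are known MYC targets, their promoters were searched for the canonical E-box, CACGTG, which MYC binds with its partner MAX and which reads the same on both strands. RefSeq promoters (build GRCh38.p14, from 250 bases before to 50 after a transcription start) were at hand for 49 of the 59 listed genes, in 61 windows. The E-box stood in 24 of these 61 windows (39.3%), against 2548 of 35116 windows of all genes (7.3%) and 1167 of 11995 windows (9.7%) of genes at or above the median level of these arrays. By role it was found in 10 of 16 windows of small subunit genes, 7 of 18 of large subunit genes, 3 of 7 of snoRNP genes, 3 of 9 of the proteins of several steps, 1 of 2 of exosome genes and 0 of 9 of Pol I genes. Another sequence searched on both strands, CCGGAAG, a core that ETS-family factors bind, was in 24 of the 61 windows too (39.3%), against 10.3% of all windows and 18.0% of those of genes at or above the median level, and stood in 6 of the 9 Pol I windows. Neither motif contains the other. A match is a stretch of letters and not a bound site. The windows below belong to the genes that hold the E-box among the 3 members of each role (1 for the exosome) with the largest called changes at 48 h, and are shown because they place the motif next to the start site; each runs 5′ to 3′ along the gene's strand, with the E-box in capitals.
LYAR: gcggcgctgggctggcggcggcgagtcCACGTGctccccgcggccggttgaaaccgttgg
DDX21: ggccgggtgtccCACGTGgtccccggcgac
MRTO4: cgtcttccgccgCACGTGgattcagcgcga
EXOSC5 upstream: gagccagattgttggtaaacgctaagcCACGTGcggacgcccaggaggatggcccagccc
EXOSC5 downstream: caactgcagccgCACGTGggctcggcgcga
GAR1: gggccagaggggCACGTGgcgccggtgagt
The LYAR window is chr4:4290053-4290112 on the minus strand, and its E-box begins 64 bases before the start site. That of DDX21 is chr10:68956604-68956633 on the plus strand, with the E-box 31 bases before the start. EXOSC5 holds a pair, at chr19:41397416-41397475 and chr19:41397328-41397357 on the minus strand, which begin 89 bases before the start site and 14 bases after it. The E-box of MRTO4 (chr1:19251807-19251836, plus strand) begins 14 bases after the start site, and that of GAR1 (chr4:109815781-109815810, plus strand) 31 bases after it.

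At 48 h most of the machinery was down-regulated in Dox+ cells. Of the 52 members, 45 were lower (limma, adjusted p by Benjamini-Hochberg over all genes under 0.05), where 12.9% of all genes tested were lower, and 0 were higher, where 11.3% of all genes were. At an unadjusted p under 0.05 by limma 1 was higher (RRN3), where 3041 of all 19775 genes were. After adjustment 1 was higher by the methods' t-test (RCL1). This is Student's t-test, which the methods name among their general statistics and not for the arrays. The changes were modest, with a median log2 difference of −0.39 over the 52 members (1.31-fold lower) and of −0.02 over all genes. Among the 45, the falls ran between 0.23 and 0.82 on the log2 scale, from 1.17-fold to 1.77-fold, and 4 exceeded 1.5-fold. All 45 had every Dox+ array below every Dox− array, which rests on the same values as the calls and is no separate support. Of the whole list, 48 members were so separated downwards, against 21.9% of all genes, and 2 upwards, against 17.4% of all genes. Genes at or above the median level of the arrays, which is where the members lie, were lower in 22.8% of 9888 cases. The median level of the members was 9.20, 9.10 and 9.02 on the Dox+ arrays and 9.56, 9.63 and 9.54 on the Dox− arrays. Every Dox+ array was thus below every Dox− array in the middle of the list as well.

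**Figure D1:**
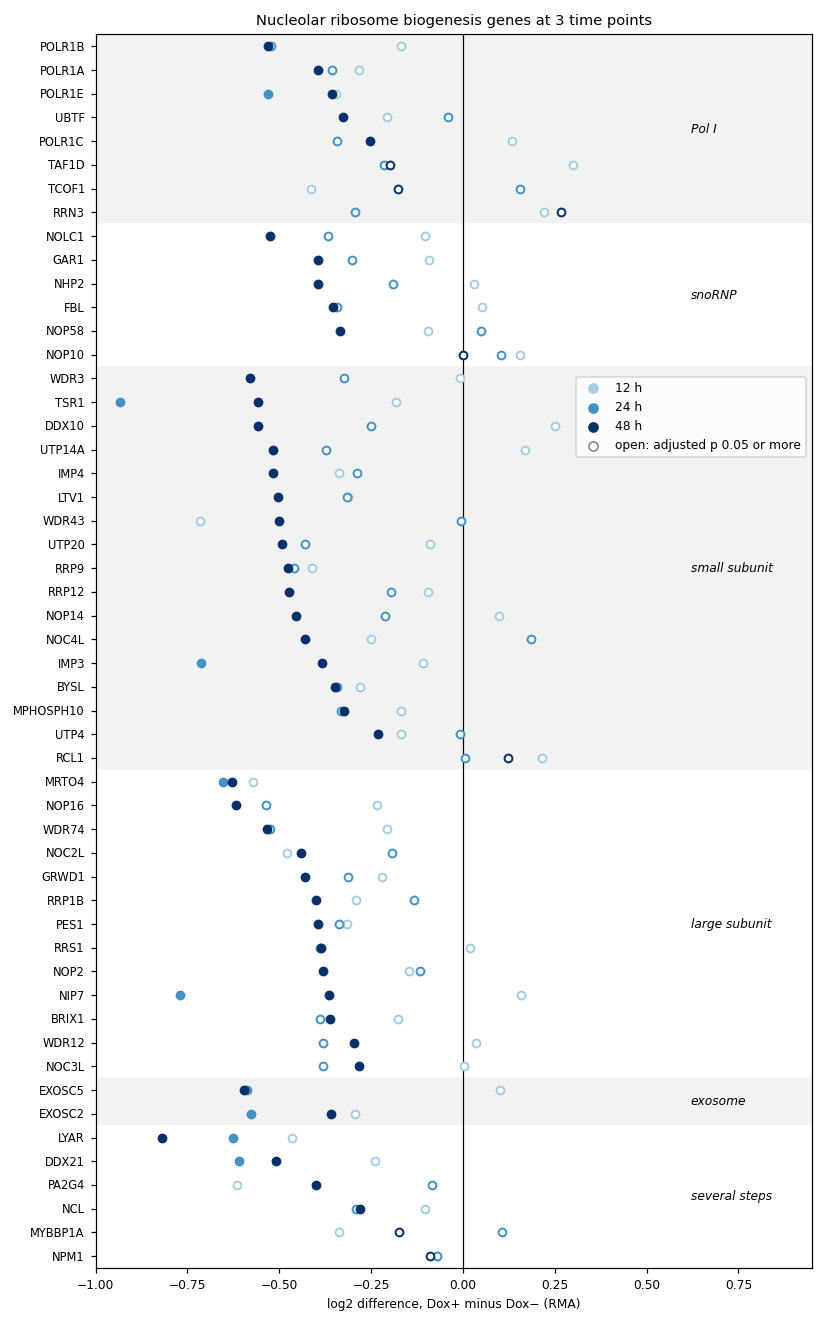
Log2 difference between Dox+ and Dox− (x axis) of each of the 52 measured genes (rows, grouped by role and ordered by the 48 h value) at the 3 time points, with filled points where the adjusted p was under 0.05. At 48 h 45 points are filled and left of 0, at 24 h 9, and at 12 h none.

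Pol I transcription had 5 of its 8 members lower at 48 h (median log2 difference −0.29). POLR1B and POLR1A are the largest subunits of the enzyme. POLR1B measured 9.56, 9.58 and 9.47 on the Dox+ arrays of 48 h and 10.07, 10.10 and 10.03 on the Dox− arrays, without overlap, a log2 difference of −0.53 (SE 0.06, limma adjusted p = 0.000248). POLR1A measured 7.93, 7.87 and 7.69 on the Dox+ arrays and 8.25, 8.28 and 8.15 on the Dox− arrays, with Dox+ replicate 3 the lowest (−0.39, SE 0.08, limma adjusted p = 0.0049). POLR1E, a subunit that helps the enzyme to engage its promoter, was at 7.38, 7.31 and 7.23 on the Dox+ arrays and at 7.61, 7.74 and 7.64 on the Dox− arrays (−0.36, SE 0.07, limma adjusted p = 0.0037), and its groups did not overlap. UBTF, which coats the active ribosomal DNA, and POLR1C, a subunit shared with RNA polymerase III, were lower with log2 differences of −0.33 and −0.25. The members that did not pass were RRN3, TAF1D and TCOF1. RRN3, which recruits Pol I to its promoter, differed by 0.27 with every Dox+ array above every Dox− array (limma adjusted p = 0.0724), TAF1D of the promoter selectivity factor SL1 by −0.20 with overlapping groups, and TCOF1, the treacle protein, by −0.18 (limma adjusted p = 0.162 for TAF1D and 0.108 for TCOF1). The direction of RRN3 is opposite to that of the polymerase subunits, and it passed the test in 5 of 16 alternative settings. Which of these genes passed depended on the probe set. Of the other sets of TCOF1, 1 was lower (−0.26, adjusted p over all probe sets 0.0189, limma). The other set of POLR1C did not pass (−0.14, adjusted p over all probe sets 0.18, limma).

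Among the snoRNP genes 5 of 6 were lower (median −0.37). NOLC1, a chaperone that shuttles snoRNPs to the nucleolus, measured 10.27, 10.22 and 10.23 on the Dox+ arrays of 48 h and 10.77, 10.81 and 10.72 on the Dox− arrays (−0.53, SE 0.06, limma adjusted p = 0.000204). The distance between the groups was several times their spread. GAR1 and NHP2 are core proteins of the H/ACA particle. GAR1 was at 8.94, 9.00 and 8.86 on the Dox+ arrays and 9.31, 9.40 and 9.27 on the Dox− arrays (−0.40, SE 0.07, limma adjusted p = 0.0021). NHP2 was at 11.01, 11.03 and 11.03 on the Dox+ arrays and 11.39, 11.43 and 11.44 on the Dox− arrays (−0.39, SE 0.05, limma adjusted p = 0.0008). Neither pair of groups overlapped. The box C/D proteins FBL, the methyltransferase, and NOP58 were lower with differences of −0.35 and −0.33. NOP10, the smallest H/ACA protein, had a difference of 0.001 with overlapping groups, so the measured members of 1 particle did not move alike.

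The small subunit genes were lower in 16 of 17 cases (median −0.48). WDR3, a component of the processome, was the member with the smallest adjusted p. It measured 9.12, 9.11 and 9.09 on the Dox+ arrays of 48 h and 9.64, 9.72 and 9.70 on the Dox− arrays (−0.58, SE 0.06, limma adjusted p = 9.6e-05), so the Dox+ arrays were nearly alike. TSR1, which acts on late precursors of the small subunit, measured 10.37, 10.45 and 10.38 on the Dox+ arrays and 10.98, 10.95 and 10.95 on the Dox− arrays (−0.56, SE 0.06, limma adjusted p = 0.000127). DDX10, an RNA helicase, measured 9.39, 9.51 and 9.39 on the Dox+ arrays and 9.99, 9.94 and 10.03 on the Dox− arrays (−0.56, SE 0.06, limma adjusted p = 0.000215). In each of these genes the groups were apart by far more than their own range. UTP14A, IMP4, LTV1, WDR43 and UTP20 were lower with differences of −0.49 to −0.52, and RRP9, the protein specific to the U3 snoRNP, RRP12, NOP14 and NOC4L by −0.43 to −0.48. IMP3 (−0.38), BYSL (−0.35), MPHOSPH10 (−0.32) and UTP4 (−0.23) completed the group, in which IMP3, IMP4 and MPHOSPH10 form 1 complex. The exception was RCL1, related to RNA cyclases, at 0.12 with every Dox+ array above every Dox− array (limma adjusted p = 0.162).

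All 13 large subunit genes were lower (median −0.39). MRTO4, a stand-in for the ribosomal stalk protein during assembly, measured 8.79, 8.82 and 8.60 on the Dox+ arrays of 48 h and 9.37, 9.36 and 9.37 on the Dox− arrays (−0.63, SE 0.07, limma adjusted p = 0.000213). NOP16 measured 9.63, 9.67 and 9.63 on the Dox+ arrays and 10.21, 10.19 and 10.38 on the Dox− arrays (−0.62, SE 0.07, limma adjusted p = 0.000196). Both were more than 1.5-fold lower without overlap. WDR74, found on early precursors of the large subunit, was less tight, at 9.30, 9.34 and 9.12 on the Dox+ arrays and 9.74, 9.98 and 9.64 on the Dox− arrays (−0.53, SE 0.10, limma adjusted p = 0.0034). PES1 (−0.39) and WDR12 (−0.30) form the PeBoW complex with the unmeasured BOP1. NOC2L (−0.44) and NOC3L (−0.28) are partners in the export of precursors, GRWD1 (−0.43) is a chaperone of a ribosomal protein, and NOP2 (−0.38) methylates the RNA of the large subunit. RRP1B, RRS1, NIP7 and BRIX1 were lower with differences of −0.36 to −0.40.

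The exosome, the complex that trims the 3′ ends of the precursor, had both of its members lower. EXOSC5, of its ring, measured 8.51, 8.51 and 8.44 on the Dox+ arrays of 48 h and 9.02, 9.05 and 9.17 on the Dox− arrays (−0.59, SE 0.06, limma adjusted p = 0.000163), and EXOSC2, of its cap, differed by −0.36. Of the proteins that act at several steps, 4 of 6 were lower (median −0.34). LYAR, a nucleolar zinc finger protein, had the largest fall of the 52 genes, at 9.28, 9.38 and 9.46 on the Dox+ arrays and 10.08, 10.32 and 10.17 on the Dox− arrays (−0.82, SE 0.08, 1.77-fold lower, limma adjusted p = 0.000101). Its other probe set gave −0.81. DDX21, a helicase that couples Pol I transcription to processing, measured 11.26, 11.28 and 11.20 on the Dox+ arrays and 11.77, 11.77 and 11.72 on the Dox− arrays (−0.51, SE 0.06, limma adjusted p = 0.000227). PA2G4 measured 9.92, 10.05 and 10.18 on the Dox+ arrays and 10.46, 10.47 and 10.43 on the Dox− arrays (−0.40, SE 0.07, limma adjusted p = 0.0036), with Dox+ arrays that varied more than the Dox− arrays did. The other 3 proteins of this group had smaller differences. NCL, nucleolin, was lower with a difference of −0.28, whereas NPM1, nucleophosmin, had a difference of −0.09 (limma adjusted p = 0.31) and MYBBP1A of −0.17 (limma adjusted p = 0.0706). Other probe sets of these genes differed in their call. For NPM1, whose many pseudogenes may share its probes, they gave −0.25 and −0.28 (adjusted p over all probe sets 0.019 and 0.0139, limma), and for MYBBP1A −0.41 (0.00344, limma). Over the list, 43 of the 51 probe sets not used for a gene had a negative difference at 48 h, 24 were lower and 1, of RCL1, was higher.

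**Figure D2:**
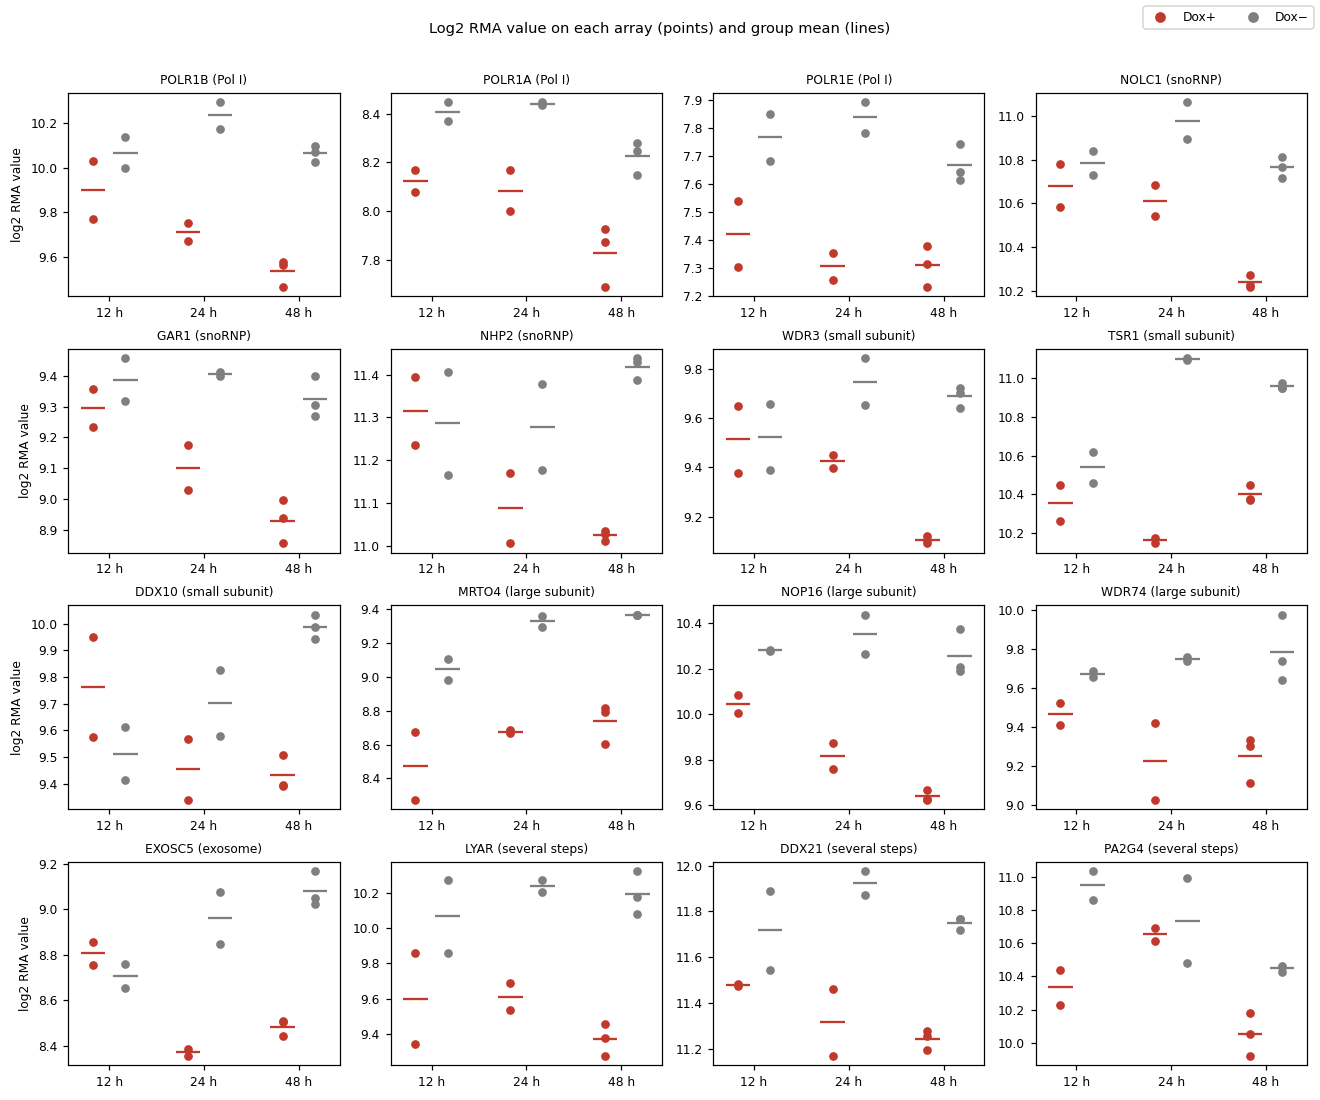
Log2 RMA value (y axis, a separate range in each panel) of the 16 genes with the largest changes in their role on each array by time of treatment (x axis), with points for arrays and lines for group means. At 48 h every Dox+ point is below every Dox− point in all 16 panels, while at 12 h several panels, such as WDR3, NHP2 and DDX10, overlap.

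At 24 h the same direction was seen with fewer calls. Of the 52 members 9 were lower (limma, 2.81% of all genes were) and 0 were higher (3.01% of all genes were), with a median log2 difference of −0.33 over the members and of 0.02 over all genes. The 9 were TSR1, NIP7, IMP3, MRTO4, LYAR, DDX21, EXOSC5, EXOSC2 and POLR1E, and all 9 were also lower at 48 h. Which of them passed at 24 h depended on the probe set. The other set of DDX21 was lower too (−0.60, adjusted p over all probe sets 0.037, limma). Those of LYAR (−0.20), MRTO4 (−0.31), NIP7, TSR1, POLR1E and EXOSC2 (−0.14 and −0.23) did not pass. TSR1 had the largest fall, at 10.15 and 10.18 on the Dox+ arrays and 11.09 and 11.10 on the Dox− arrays (−0.93, SE 0.12, limma adjusted p = 0.0038). This exceeded its difference at 48 h of −0.56. NIP7 and IMP3 likewise had larger differences at 24 h (−0.77 and −0.71) than at 48 h (−0.36 and −0.38). The difference between these times was not tested. For NIP7 the order of the times depended on the probe set, since its other set fell less after 24 h (−0.25) than after 48 h (−0.34). The other sets of TSR1 did not all keep the order, with −0.59, −0.57 and −0.09 (24 h) against −0.51, −0.35 and −0.17 (48 h). In all, 46 of 52 differences were negative, and 30 members were lower at an unadjusted p under 0.05 by limma. Of all 19775 genes 9038 were negative and 2040 lower, and of the 9888 at or above the median level 5488 and 1792. Every Dox+ array was below every Dox− array in 40 members, against 23.7% of all genes. The count of 9 fell whichever array was left out, while the median difference over the members stayed between −0.363 and −0.270. Such a fit leaves 1 array in a group, so the part of any single array cannot be told from that of the smaller number. With Dox+ replicate 1 left out it was 1, and with Dox+ replicate 2 left out it was 6. Leaving out a Dox− array gave 1 (replicate 1) or 2 (replicate 2), and TSR1 was lower in each of these 4 fits. The 5′ minus 3′ difference of the control probe sets also differed between the groups at 24 h, as given above. With that difference as a covariate in 1 fit of all arrays, 6 members were lower at 24 h (TSR1, IMP3, DDX21, EXOSC5, WDR12 and BYSL) and 2 were higher (WDR43 and MYBBP1A), and 41 were lower at 48 h. The same 1 fit without the covariate had 21 lower at 24 h and 38 at 48 h.

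At 12 h no member passed, and 0 were lower (0.0202% of all genes were) and 0 higher (0.647% of all genes were). The median log2 difference was −0.17 over the members and −0.04 over all genes. At an unadjusted p under 0.05 by limma, 5 members were lower and 0 higher, where 1286 and 1414 of all 19775 genes were. Of the 9888 genes at or above the median level 430 were lower and 1143 higher. The methods' t-test gave 0 members after adjustment in either direction. The 5 members lower before adjustment were PA2G4, MRTO4, NOC2L, RRP9 and TCOF1. The other probe sets of PA2G4, MRTO4 and NOC2L had negative differences too (−0.70, −0.50 and −0.33), whereas those of TCOF1 gave 0.17 and −0.20. PA2G4 measured 10.44 and 10.23 on the Dox+ arrays and 10.86 and 11.04 on the Dox− arrays (−0.62, SE 0.16, limma adjusted p = 0.183), and MRTO4 8.27 and 8.67 on the Dox+ arrays and 9.11 and 8.98 on the Dox− arrays (−0.57, SE 0.18, limma adjusted p = 0.261). Neither overlapped, and over the list 26 members were separated downwards and 3 upwards, where 27.6% and 19.3% of all genes were. Without Dox+ replicate 1, the array with the lowest 5′ minus 3′ control difference, the median was −0.07, and with that control difference as a covariate in 1 fit it was −0.03. The part of RNA quality in the values of 12 h and 24 h was not tested further.

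**Figure D3:**
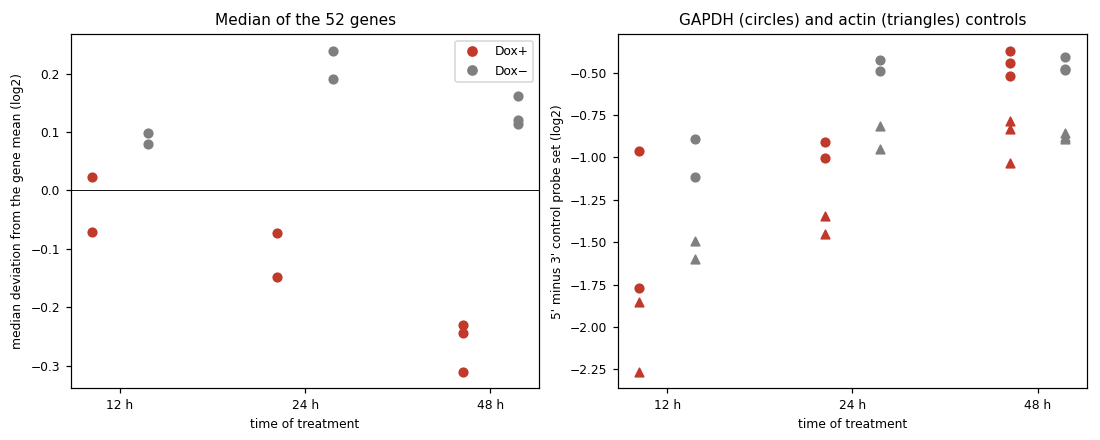
Left, median deviation of the 52 genes from their own means (y axis, log2) on each array. Right, 5′ minus 3′ difference of the GAPDH (circles) and actin (triangles) control probe sets (y axis, log2). Dox+ arrays are red and Dox− arrays grey by time of treatment (x axis). In the left panel the Dox+ and Dox− arrays do not overlap at any time. In the right panel they overlap at 12 h and 48 h for GAPDH but not at 24 h. For actin they overlap at 48 h but not at 12 h or 24 h.

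Between 12 h and 48 h the members were compared within each condition. In Dox+ cells 6 members were lower at 48 h than at 12 h (2.53% of all genes were, limma) and 0 were higher (4.99% of all genes were, and 1 member at an unadjusted p under 0.05), with a median log2 difference of −0.19 (−0.04 over all genes). They were NOC4L (−0.68), TCOF1 (−0.66), NOP2 (−0.52), POLR1C (−0.46), NOLC1 (−0.44) and NOP16 (−0.41). In Dox− cells 4 were lower (12.9% of all genes were) and 8 higher (10.7% of all genes were), with a median of 0.04 (−0.06 over all genes). Among the 9888 genes at or above the median level, 839 were lower (8.49%) and 1882 higher in these cells, with a median of 0.12. In Dox+ cells 393 of them were lower and 796 higher, with a median of 0.005. The members lower in Dox− cells were TCOF1, PA2G4, NOC4L and NOC2L, of which TCOF1 and NOC4L were lower over time in Dox+ cells too. Those higher were UTP20 (0.51), DDX10 (0.48), TSR1 (0.42), IMP3 (0.38), EXOSC5 (0.37), MRTO4 (0.32), FBL (0.31) and UTP14A (0.28), 5 of them genes of the small subunit. DDX10 measured 9.39, 9.51 and 9.39 at 48 h and 9.95 and 9.57 at 12 h on the Dox+ arrays, against 9.99, 9.94 and 10.03 at 48 h and 9.61 and 9.41 at 12 h on the Dox− arrays. It was thus higher over time without doxycycline, and its Dox+ arrays of 48 h were all below those of 12 h. These counts depended on the scaling and on single arrays. After quantile normalization of the values 13 members were lower and 0 higher in Dox+ cells, and 8 lower and 0 higher in Dox− cells. The number lower in Dox+ cells was 16 without Dox+ 12 h replicate 1 and 0 without any 1 of the Dox+ arrays of 48 h, and the number higher in Dox− cells was 12 without Dox− 12 h replicate 1 and 0 without any 1 of the Dox− arrays of 48 h. Time, culture and RNA quality cannot be told apart in these comparisons.

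Whether the doxycycline effect differed between 48 h and 12 h was tested as an interaction. No member passed, with 0 lower (0.44% of all genes were, limma) and 0 higher (0.612% of all genes were), although 46 of 52 estimates were negative (median −0.22, against 0.03 over all genes) and 14 were lower at an unadjusted p under 0.05. Of all 19775 genes 9029 had negative estimates and 1541 were lower at that p. Of the 9888 genes at or above the median level 6284 had negative estimates (median −0.10) and 1371 were lower. EXOSC5 (−0.70, SE 0.16) and DDX10 (−0.81, SE 0.19) came nearest, both with a limma adjusted p of 0.052. EXOSC5 measured 8.86 and 8.76 on the Dox+ arrays of 12 h and 8.65 and 8.76 on the Dox− arrays of 12 h, and overlapped there, against a clear separation at 48 h. Without array weights both passed (adjusted p of 0.0126 for EXOSC5 and 0.0228 for DDX10). It was therefore not shown that the effect on any member grew over the time course.

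The remaining genes of the pathway, in a list also chosen with earlier results of these data known, were mostly lower too. Of 99 further measured biogenesis genes from a textbook list, 65 were lower at 48 h (12.9% of all genes were), 4 were higher (11.3% of all genes were) and 30 did not pass (median log2 difference −0.27). These were 3 of 8 of Pol I transcription, 30 of 39 of the small subunit, 26 of 42 of the large subunit and 6 of 10 of the exosome among those lower. The largest falls were those of NAT10, an acetyltransferase of the small subunit RNA (−0.72, SE 0.07), and NLE1, an assembly factor of the large subunit (−0.71, SE 0.07), with limma adjusted p-values of 0.000112 and 0.000127. The largest of the 4 rises were those of URB1 (0.63, SE 0.11, limma adjusted p = 0.00269) and EXOSC6 (0.36, SE 0.06, limma adjusted p = 0.00163), which encodes another ring subunit of the exosome, so subunits of that complex moved in both directions. At 24 h 12 of the 99 were lower, against 2.81% of all genes, and 1 was higher, against 3.01%.

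MYC itself was lower in Dox+ cells. It measured 10.94, 10.87 and 10.81 on the Dox+ arrays of 48 h and 11.64, 11.60 and 11.67 on the Dox− arrays (−0.76, SE 0.06, limma adjusted p = 2.8e-05), and differed by −0.98 at 24 h (SE 0.14, limma adjusted p = 0.0051) and by −0.74 at 12 h, when it did not pass (SE 0.21, limma adjusted p = 0.23). Of the 21 measured members with an E-box in a promoter window, 18 were lower at 48 h, with a median of −0.46, and of the 23 with a window but no E-box 20 were, with a median of −0.39. The part of MYC in the values of the members was not tested. Proliferation markers moved with the members as well. At 48 h 3 of 6 were lower (MKI67, MCM2 and CCNB1) and all 6 differences were negative (median −0.33), and the mean level of the 6 lay between 10.9 and 11.2 on the Dox+ arrays and between 11.4 and 11.5 on the Dox− arrays. At 24 h 4 of the 6 were lower. Hepatocyte markers moved too. At 48 h 3 of 6 were lower (APOA1, TTR and AFP) and 1 was higher (SERPINA1), and their mean level lay between 11.43 and 11.49 on the Dox+ arrays and between 11.70 and 11.74 on the Dox− arrays. At 24 h, when 0 of the 6 passed, it lay between 11.57 and 11.58 on the Dox+ arrays and between 11.68 and 11.78 on the Dox− arrays. The part of either set of markers in the fall of the biogenesis genes was not tested.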

How the data were processed

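RNA of 14 Hep3BTAp73β cultures had been hybridised to 1-colour arrays. The authors deposited log2 values, 1 per probe set, obtained with RMA, which corrects background, equalises the arrays by quantiles and summarises probes. The methods name BRB-ArrayTools and the exclusion of outlier arrays, and the submitters' processing notes name R 3.5.1. No filter or further normalization was applied. The members and all gene lists were chosen with earlier results of these data known.

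After 62 controls were left out, 41091 probe sets named 1 gene (41037 through the Entrez identifier, giving current RefSeq symbols), 1801 several and 11721 none; the 1 with the highest mean stood for each of 19775 genes. Groups came from the labels. Dox+ and Dox− were compared within each time point, and 48 h with 12 h within each condition, with limma 3.58.1 in R 4.3.3 (lmFit, eBayes, two-sided), with Benjamini-Hochberg adjustment over all genes and a threshold of 0.05. The interaction was fitted on all 14 arrays weighted by time point. Spread between replicates (root mean variance) was 0.111 for Dox+ and 0.105 for Dox− at 48 h, and 0.196 and 0.209 at 12 h, and the number of arrays limits the precision. p-values measure the spread between these cultures. Scripts were tested on simulated data: at 12 h and 24 h few or no changes of the size seen here were found, and the comparisons over time and the interaction called more unchanged genes than the threshold allows.

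Values are given per array for the members with the largest called changes in each role (3, or 1 for the exosome); the other genes named are all members, TP73, MYC, and the 2 largest called changes in each direction among the further biogenesis genes. Alternatives were quantile normalization, 1 fit, a filter on dim genes, other choices of probe set, a replicate block, trend and robust options, the methods' t-test and leaving out each array; the covariate of RNA quality, every probe set on its own, array weights over time and a crossed block were added after seeing the data. The output was made with data.table (version 1.17.8), pandas 2.3.3 and matplotlib 3.10.9 in Python 3.11.15.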

Additional observations from a re-analysis of the deposited data

Results flagged for a closer look

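For 4 members every Dox+ array lay on one side of the Dox− arrays at one time point and on the other side at the next, and this difference between the time points was not tested. UTP14A differed by 0.17 at 12 h and by −0.37 at 24 h (log2, Dox+ minus Dox−). NOC4L differed by −0.25 at 12 h, 0.19 at 24 h and −0.43 at 48 h. MYBBP1A differed by 0.11 at 24 h and −0.17 at 48 h, and RRN3 by −0.29 at 24 h and 0.27 at 48 h. Of these values that of NOC4L at 48 h alone passed the test (limma adjusted p = 0.00066). The other probe set of MYBBP1A did not change direction, with −0.71 at 12 h, −0.47 at 24 h and −0.41 at 48 h. Full separation of the groups was frequent among all genes. In the 12 h comparison 27.6% lay wholly below and 19.3% wholly above. The 24 h shares were 23.7% below and 26.6% above, those of 48 h 21.9% below and 17.4% above. How many of all genes changed sides was not counted, so these 4 members were not shown to be unusual.

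Control probe sets for ribosomal RNA, which belong to no gene comparison, lay on all Dox+ arrays above all Dox− arrays in 3 of 18 cases (6 probe sets at 3 time points), below them in 2 and overlapped in 13. The mean difference was 2.01 for the 3′ probe set of 18S rRNA at 12 h, 0.26 for the 3′ probe set of 28S rRNA at 24 h and 0.43 for the middle probe set of 28S rRNA at 48 h (log2). Those below were the 3′ probe set of 28S rRNA at 12 h (−0.24) and the middle probe set of 18S rRNA at 24 h (−2.05). The middle probe set of 28S rRNA at 48 h was at 10.9, 11.0 and 11.2 on the Dox+ arrays and 10.7, 10.7 and 10.4 on the Dox− arrays.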

How the results depend on the processing

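The 45 members lower at 48 h numbered between 38 (all 14 arrays in 1 fit) and 47 (dim genes left out) over the other settings and 41 to 45 with an array left out, when the median difference ran from −0.415 to −0.375. The number higher at 48 h was 1 with quantile normalization, with dim genes left out, by the probe set of largest interquartile range, with trend and robust options, with the replicate block and by the methods' t-test, and 0 to 1 with an array left out. That gene was RRN3 except by the probe set of largest range and the t-test, when it was RCL1. At 12 h, 3 members were lower with all arrays in 1 fit (MRTO4, NOC2L and PA2G4), the median was −0.031 with the control covariate, and −0.195 to −0.073 with an array left out. At 24 h, 3 were lower with quantile normalization, 21 in 1 fit, 17 with trend and robust options and 0 by the methods' t-test, 2 were higher with the covariate, and with an array left out 1 to 6 were lower and the median was −0.363 to −0.270. Over time in Dox+ cells, 13 were lower with quantile normalization, 12 in 1 fit, 3 with array weights and 0 with the block, and 0 to 16 lower and 0 to 2 higher with an array left out. Over time in Dox− cells, 8 were lower and 0 higher with quantile normalization, 1 lower and 1 higher with the block, 1 higher with array weights, and 1 to 7 lower and 0 to 12 higher with an array left out. The interaction had 2 lower without weights (EXOSC5 and DDX10). At 24 h WDR43, at −0.005 without the covariate, turned to 0.89 with it (limma adjusted p = 0.0108).

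Replicate numbers are shared between groups, but deviations of same-numbered arrays correlated at 0.255 (12 h), −0.110 (24 h), 0.109, 0.089 and 0.102 (48 h), so the numbers were not taken as pairs. With the replicate block 45 members were lower at 48 h, the same 45, and at 24 h 8 were, without POLR1E. A crossed block at 24 h gave 11 lower and 0 higher. WDR74 lost its call by the methods' t-test (adjusted p = 0.0601), and the other 15 members given by array kept theirs in all 16 settings. The cause of these changes was not tested.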
